A study of Mus musculus with 8 samples.

Results

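The genes described here encode receptors for glutamate, GABA and glycine, the fast transmitters of the nervous system, in the utricle of the mouse embryo. They were chosen by symbol alone: genes whose names begin with Gria, Grik, Grin, Grid or Grm and a digit, genes whose names begin with Gabr and a letter, and the glycine receptor genes Glra and Glrb. This gave 40 of the 21369 genes named in the authors' table of normalized counts, out of 48823 in the count files. The symbol rule also took in Grid2ip, which encodes a scaffold protein and no receptor subunit. Values are given for 35 of the 40, and every count of receptor genes below is over these. Genes were tested when at least 4 of the 8 libraries held 10 or more reads, which left 20 of the 35. The other 15 are given by their read counts.

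RNA was sequenced from the utricle, a gravity-sensing organ of the inner ear, of embryos of the mouse strain C57BL/6 at embryonic day E15.5. There were 4 mutant libraries with the genotype Rest(+/deltaExon4), in which 1 allele of Rest lacks exon 4, and 4 wild-type libraries. Rest encodes a repressor of neuronal genes, and transcripts that include its alternative exon 4 encode a shortened protein. The titles call the mutant libraries knockouts, although the genotype is heterozygous, and the age and strain labels of wild-type library 4 each differ from the others by a digit. Every library was made from RNA pooled from 7 to 9 mice, so the spread between libraries is that between pools, and variation between single embryos was not measured. Rest was at 127 ± 3.20 CPM in the mutant and 116 ± 7.35 CPM in the wild-type libraries (SD, n = 4 each), which checks neither the deletion nor the label, because counts per gene do not show which exons were used. Here CPM is read pairs per 1 M read pairs on genes, after scaling of the library sizes.

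Libraries held 20.4 to 24.6 M read pairs on genes. The number of genes with any read ran from 23408 to 23989 in the mutant group and from 24265 to 24687 in the wild-type group, so that fewer faint genes in the mutant libraries and the genotype cannot be told apart. All 16 hair cell markers and all 15 supporting cell markers searched for were abundant enough to be tested. The whole utricle also holds nerve fibres, glia and connective tissue, and in such bulk samples fewer cells of a type and less RNA per cell cannot be told apart. Summed markers of ganglion neurons, whose endings reach the hair cells, were at 702, 707, 682 and 632 CPM in mutant libraries 1 to 4 and at 897, 776, 1113 and 793 CPM in wild-type libraries 1 to 4. The groups did not overlap, wild-type library 3 was the highest, and 3 of the 20 ganglion neuron markers tested (Nefl, Nefm and Stmn3) fell, where 1.15% of all genes tested passed the threshold (adjusted p under 0.05 by edgeR) in either direction. Hair cell marker sums lay between 735 and 887 CPM for the mutant pools and overlapped with the wild-type pools, at 851 to 986 CPM. Of 16 tested, 4 fell (Otof, Lhfpl5, Slc17a8 and Tmc2) and 0 rose, beside the same 1.15% of all genes. Otof, with a mutant mean of 84.2 against 167 CPM, had the largest gap between group means. The decrease was not shared by the whole list. Mutant means were the higher ones for Atoh1 (60.4 against 38.3 CPM), Pvalb (21.8 against 14.1), Calb2 (47.6 against 38.1) and Rasd2 (31.0 against 29.4). They were the lower ones for the other hair cell markers. Schwann cell and glial marker sums ran from 789 to 937 CPM in mutant and from 736 to 862 CPM in wild-type libraries, with 0 of 13 past the threshold. Of 13 markers of central neurons and glia, 5 (Neurod2, Tbr1, Olig2, En1 and Hoxb4) stayed below 10 reads in every library and 0 of 8 tested passed, while the sum of the list ran from 52.6 to 60.9 CPM in mutant and from 38.8 to 52.1 CPM in wild-type libraries. Wild-type library 4 had 6657 CPM of red blood cell genes, against 513 to 832 CPM in the others. The part of these differences in the results below was not tested, except where values without a library are given.

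Ionotropic glutamate receptors are cation channels built from AMPA, kainate or NMDA receptor subunits, and metabotropic receptors act through G proteins. GABA-A and glycine receptors are pentameric chloride channels assembled from several subunit types. Hair cells release glutamate onto the endings of vestibular ganglion neurons, where AMPA receptors carry the fast response, and REST represses neuronal genes by binding a DNA element called RE1.

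Short sequences resembling RE1 are shown first, because REST acts through such elements. The letters TTCAGCACC, then 2 free bases, then GGACAG were searched on both strands, allowing 1 mismatch over the 15 letters. RefSeq promoter windows of 300 bases (250 before to 50 after a start, assembly GRCm38.p6) contained such a match in 19 of 32851 windows (0.0578%). A window was found for 26 of the 35 receptor genes, 34 windows in all, and 1 of these matched, that of Gria2. There was no entry for Gria1, Gria3, Grin2a, Grin2b, Grin3a, Grid1, Glra1, Grik1 and Grm4. Annotated transcripts matched for 130 of 55450 genes (0.234%), among them 2 of the 35 receptor genes, Glra3 and Glra1. Outside the authors' table, Gabrd, with 0 to 6 reads per library, matched with 1 mismatch on the strand opposite to its transcript. Grin1, also outside that table, encodes the obligate NMDA receptor subunit and held the letters with 0 mismatches. Capitals mark the matched stretch, free bases included, and each sequence is read 5′ to 3′ on the strand given (GRCm38).
Gria2, upstream of the start, chr3:80802985-80803014, plus strand: cgatTTTAGCACCGCGGACAGcgctttggt
Glra3, UTR, chr8:55940755-55940784, minus strand: gagcTTCAGCACCTCAGACAGctcccgcag
Glra1, UTR, chr11:55607933-55607962, plus strand: caggTTCAGCACCACGGAGAGcgtccagcc
Grin1, UTR, chr2:25319009-25319038, minus strand: acgcTTCAGCACCTCGGACAGcacccgccg
The Gria2 match is centred at position -162 relative to the start, and those in Glra3 and Glra1 lie on the strand opposite to the transcript. Such a match describes the letters only. No binding was measured.

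None of the 20 receptor genes tested passed the threshold of an adjusted p under 0.05: 0 fell and 0 rose by the quasi-likelihood test of edgeR with Benjamini-Hochberg adjustment over all 17067 genes. Over all genes 196 passed (1.15%), 171 with a negative and 25 with a positive change. At an unadjusted p under 0.05 there were 2 receptor genes, Gria4 and Gabra2, which is 10% of those tested beside 13.3% of all genes. DESeq2 called 0 of the receptor genes described, where 2.42% of its 17001 genes were lower. The median log2 change (mutant minus wild-type) of the 20 was -0.096, with 13 negative and 7 positive values, beside a median of -0.0030 and 50.6% negative values over all genes tested. Without wild-type library 1 the median was 0.034. The libraries of the genotypes overlapped for all 20, while they did not for 7.86% of all genes tested (4.89% with the mutant libraries below).

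**Figure D1:**
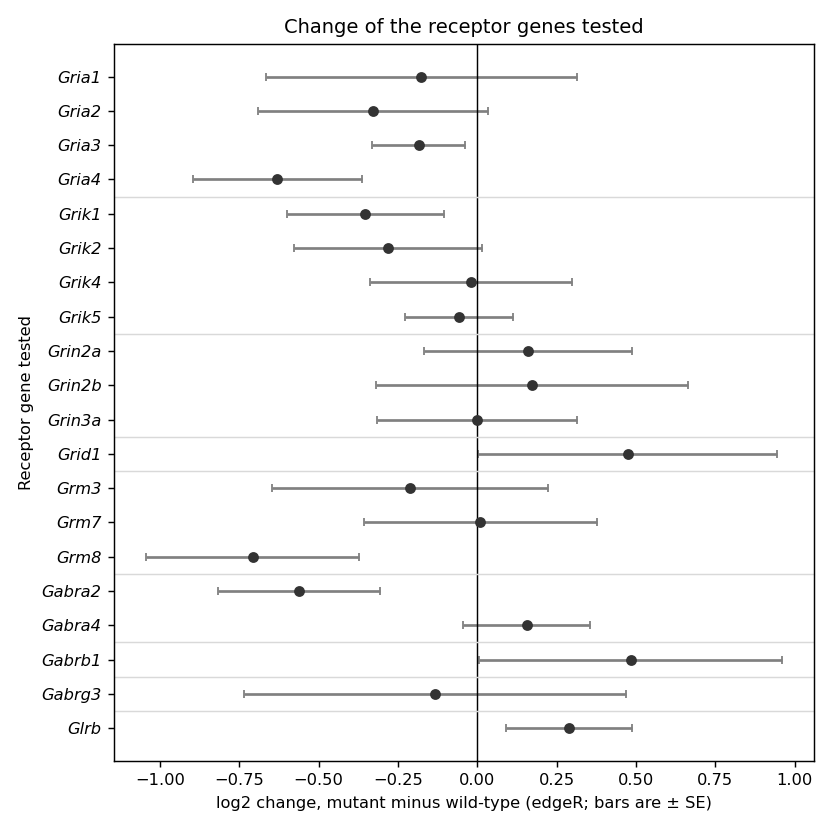
Log2 change (mutant minus wild-type, horizontal axis) of the 20 receptor genes tested and described, with bars of ± 1 standard error from edgeR and horizontal lines between subfamilies. Values lie between -0.71 (Grm8) and 0.48 (Gabrb1).

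Levels can be compared between genes only per length, as CPM per kilobase of exon. The length was that of all annotated exons of a gene merged, so annotated exons that were not used would lower the value. On that scale Gria3 was the highest in the wild-type libraries at 5.48 ± 0.578, followed by Glrb at 2.93 ± 0.783 and Grik5 at 1.30 ± 0.239 (SD, n = 4 each). Gria3 lay above Glrb and Glrb above Grik5 in every wild-type library. From Grik5 downward, by way of Gabra4 (1.09), Gria4 (0.841), Grik1 (0.713) and Grm3 (0.701), the libraries of each gene overlapped with those of the next in the order. Genes further apart could still differ, as the lowest wild-type library of Grik5 (1.08) lay above the highest of Gria4 (1.02). In the mutant libraries Gria3 was at 4.82 ± 1.03, Glrb at 3.58 ± 0.558 and Grik5 at 1.25 ± 0.120 CPM per kilobase (SD, n = 4 each). Only 2 of the 20 genes tested, Gria3 and Glrb, had a mean above 10 CPM, and 6 had a mean below 1 CPM.

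**Figure D2:**
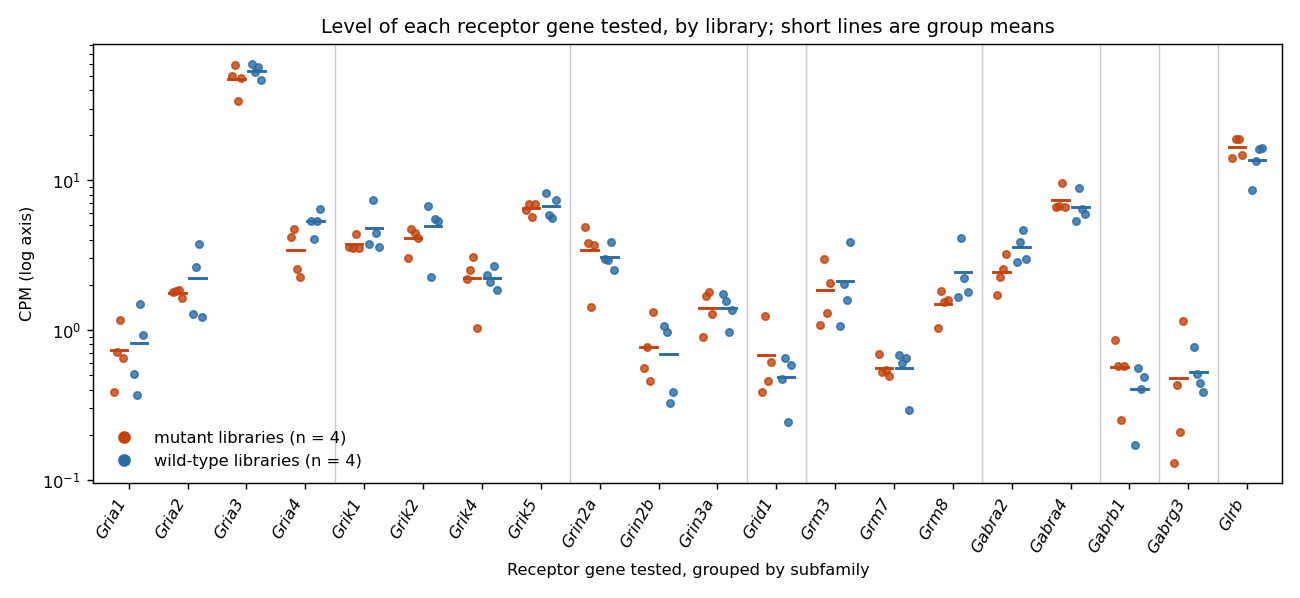
CPM (log axis, not divided by length) of the 20 receptor genes tested and described, grouped by subfamily, with 1 point per library and short lines at the means of 4 mutant (orange) and 4 wild-type (blue) libraries. Gria3, at 33.9 to 59.7 CPM, has the most CPM, and the points of the genotypes overlap for every gene.

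Among AMPA receptor subunits, the channels of fast excitatory transmission, all 4 genes were tested and none passed. Gria3 (chromosome X, 41400854 to 41678601, GRCm38) was at 49.4, 58.5, 33.9 and 48.2 CPM in mutant libraries 1 to 4 and at 59.7, 52.9, 56.8 and 46.5 CPM in wild-type libraries 1 to 4. Mutant library 3 was the lowest of the 8 and the groups overlapped, with means of 47.5 ± 10.2 and 54.0 ± 5.70 CPM (SD, n = 4 each). The log2 change was -0.18 (SE 0.15), with an adjusted p of 0.615 by edgeR (quasi-likelihood, Benjamini-Hochberg). Gria3 made up 85.9% ± 2.78 of AMPA subunit level per length in the mutant and 83.0% ± 3.45 in the wild-type libraries (SD, n = 4 each).

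Gria4 (chromosome 9, 4417896 to 4796234) was at 4.20, 4.73, 2.55 and 2.25 CPM in mutant libraries 1 to 4 and at 5.36, 4.02, 5.38 and 6.45 CPM in wild-type libraries 1 to 4. Mutant libraries 3 and 4 were the lowest, and the groups overlapped because wild-type library 2 lay below mutant libraries 1 and 2. Its log2 change was -0.63 (SE 0.27), with an adjusted p of 0.344 (edgeR, unadjusted p = 0.0374). Over the 15 alternative settings the adjusted p ran from 0.207 to 0.562.

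Gria2 encodes the subunit whose RNA-edited form makes AMPA receptors nearly impermeable to calcium, and its promoter window held the RE1-like letters printed above. It was described after its values were seen. It was at 1.80, 1.82, 1.84 and 1.64 CPM in mutant libraries 1 to 4 and at 1.28, 2.63, 3.76 and 1.21 CPM in wild-type libraries 1 to 4. The mutant libraries lay close together inside the wild-type range. The log2 change was -0.33 (SE 0.36, adjusted p = 0.730 by edgeR) and ran from -0.53 to 0.05 over the alternatives. Gria2 was a small part of AMPA subunit level per length, at 2.11% ± 0.505 in the mutant and 2.15% ± 1.09 in the wild-type libraries (SD, n = 4 each). This share depends on the merged exon length, 15548 bases for Gria2 against 9859 for Gria3, and the exons used were not examined. Of the 18 genes with a promoter match, 10 were tested, of which 2 were lower and 0 higher, beside 1.15% of all genes past the threshold in either direction. Gria2 was the only receptor gene described among the 18, and it was not past the threshold. A link between match and change was not tested.

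Kainate receptor subunits form cation channels that act before and after the synapse. Of 5 genes, 4 were tested and none passed. Grik5 (chromosome 7, 25009849 to 25072346), a high-affinity subunit that needs a partner subunit to form a channel, was at 6.30, 6.98, 5.68 and 6.96 CPM in mutant libraries 1 to 4 and at 8.20, 5.87, 5.58 and 7.32 CPM in wild-type libraries 1 to 4. The groups overlapped throughout, and the log2 change was -0.06 (SE 0.17, adjusted p = 0.913 by edgeR). Grik5 made up 50.3% ± 6.20 of kainate subunit level per length in the mutant and 46.4% ± 6.50 in the wild-type libraries (SD, n = 4 each). The untested Grik3 had 2, 6, 0 and 0 reads in mutant and 8, 7, 7 and 6 reads in wild-type libraries 1 to 4. Its groups met at 6 reads.

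Genes of the NMDA receptor, a calcium-permeable channel that needs glutamate and a coagonist, numbered 5, of which 3 were tested and none passed. Grin2a (chromosome 16, 9567898 to 9995560), a glutamate-binding subunit, was at 4.84, 3.82, 1.42 and 3.68 CPM in mutant libraries 1 to 4 and at 2.98, 2.91, 3.88 and 2.52 CPM in wild-type libraries 1 to 4. Mutant library 3 was the lowest and mutant library 1 the highest of all 8. The log2 change was 0.16 (SE 0.33, adjusted p = 0.873 by edgeR). Grin1 had 0 to 3 reads per library and 14 in all, so at this depth the obligate subunit was at or near the limit of detection while Grin2a had 598 reads over the 8 libraries.

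Delta receptors resemble ionotropic glutamate receptors and organise synapses through cerebellin proteins. Grid1 (chromosome 14, 34820108 to 35583379) was at 0.386, 1.24, 0.459 and 0.614 CPM in mutant libraries 1 to 4 and at 0.468, 0.647, 0.243 and 0.582 CPM in wild-type libraries 1 to 4. Mutant library 2 was the highest and wild-type library 3 the lowest, and the groups overlapped. These values rest on 6 to 26 reads per library. Its log2 change was 0.47 (SE 0.47, adjusted p = 0.697 by edgeR). Grid2ip had 3 to 14 reads.

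Among the 5 metabotropic glutamate receptors described, 3 were tested and none passed. Grm3 (chromosome 5, 9485541 to 9725170), a receptor of the inhibitory class that glia also express, was at 1.07, 2.96, 1.29 and 2.05 CPM in mutant libraries 1 to 4 and at 1.06, 2.03, 1.58 and 3.88 CPM in wild-type libraries 1 to 4. The groups overlapped, with wild-type library 4 the highest and wild-type library 1 the lowest, and the log2 change was -0.21 (SE 0.43, adjusted p = 0.874 by edgeR). The related Grm2 was below the filter, with 0, 0, 1 and 0 reads in mutant and 2, 2, 6 and 7 reads in wild-type libraries 1 to 4. Its groups did not overlap, as was so with the mutant libraries lower for 3.44% of genes with at least 1 read. Fitted without a filter, Grm2 had an adjusted p of 0.236 by edgeR (quasi-likelihood, Benjamini-Hochberg).

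In the GABA-A receptor, alpha subunits form the GABA binding site together with beta subunits. Of the 4 alpha genes described, 2 were tested and none passed. Gabra4 (chromosome 5, 71569749 to 71658308) was at 6.60, 6.74, 9.60 and 6.63 CPM in mutant libraries 1 to 4 and at 5.31, 8.87, 6.47 and 5.92 CPM in wild-type libraries 1 to 4. Mutant library 3 was the highest and the groups overlapped, with a log2 change of 0.16 (SE 0.20, adjusted p = 0.779 by edgeR). Gabra2 (chromosome 5, 70957597 to 71095849) was at 1.71, 2.25, 2.55 and 3.19 CPM in mutant libraries 1 to 4 and at 2.85, 3.88, 4.65 and 2.96 CPM in wild-type libraries 1 to 4. Only mutant library 4 reached into the wild-type range. Gabra2 had a log2 change of -0.56 (SE 0.25), with an adjusted p of 0.374 by edgeR (unadjusted p = 0.0496). Gabra4 made up 73.7% ± 6.78 of the level per length of these 4 alpha genes in the mutant and 64.9% ± 6.24 in the wild-type libraries (SD, n = 4 each). Gabra2 made up 19.3% ± 3.95, from 15.9% to 24.4%, and 27.9% ± 3.32, from 24.7% to 32.2%. The shares of Gabra2 did not overlap between genotypes, a difference in share that was not tested. Shares were taken within the AMPA, alpha and kainate genes described. That of Grik3, on 0 to 8 reads per library, did not overlap either (mutant up to 1.19%, wild-type from 1.20%). No background over all genes was computed for such shares. The ganglion neuron marker sums did not overlap between genotypes either. In mutant libraries 1 to 4 the Gabra2 share was 15.9%, 20.4%, 16.3% and 24.4%, beside sums of 702, 707, 682 and 632 CPM. A link between share and sum was not tested.

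Beta subunits are needed for GABA-A receptors to assemble. Gabrb1 (chromosome 5, 71658113 to 72149037) was at 0.857, 0.574, 0.250 and 0.573 CPM in mutant libraries 1 to 4 and at 0.170, 0.554, 0.404 and 0.485 CPM in wild-type libraries 1 to 4. The groups overlapped, with mutant library 1 the highest and wild-type library 1 the lowest, and the log2 change was 0.48 (SE 0.48, adjusted p = 0.694 by edgeR). Gabra4 and Gabrb1 share 46 bases of exon on opposite strands, and reads from there cannot be told apart by strand in the counts used. Gabrb2 was below the filter, with 5, 6, 2 and 9 reads in mutant and 17, 11, 21 and 7 reads in wild-type libraries 1 to 4. Only mutant library 4 and wild-type library 4 made its groups overlap, and without a filter its log2 change was -1.31 (adjusted p = 0.428 by edgeR).

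Gabrg1, Gabra2, Gabra4 and Gabrb1 lie within 1.40 Mb on chromosome 5, and this stretch ends 5.12 Mb before Rest. Of these 4 neighbours 3 were tested, with log2 changes of -0.56 for Gabra2, 0.16 for Gabra4 and 0.48 for Gabrb1. They had no common direction.

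Gamma subunits place GABA-A receptors at synapses, and of those described Gabrg3 was tested. Gabrg3 (chromosome 7, 56716465 to 57387188) was at 0.129, 0.430, 0.209 and 1.15 CPM in mutant libraries 1 to 4 and at 0.765, 0.508, 0.445 and 0.388 CPM in wild-type libraries 1 to 4. Mutant library 4 was the highest and mutant library 1 the lowest of all, with a log2 change of -0.13 (SE 0.60, adjusted p = 0.947 by edgeR). Gabrg1 had 3, 3, 4 and 5 reads in mutant and 5, 7, 10 and 7 reads in wild-type libraries 1 to 4. Mutant library 4 and wild-type library 1 had the same number of reads, and only in CPM did the groups of Gabrg1 not overlap. Among untested alpha genes, Gabra3 had 2 to 21 reads and Gabra5 0 to 6. Wild-type library 3 was the highest library for 8 of the 35 receptor genes, where each other library was highest for 2 to 5. Of these 8 genes 3 were among the 20 tested, and the others were below the filter.

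**Figure D3:**
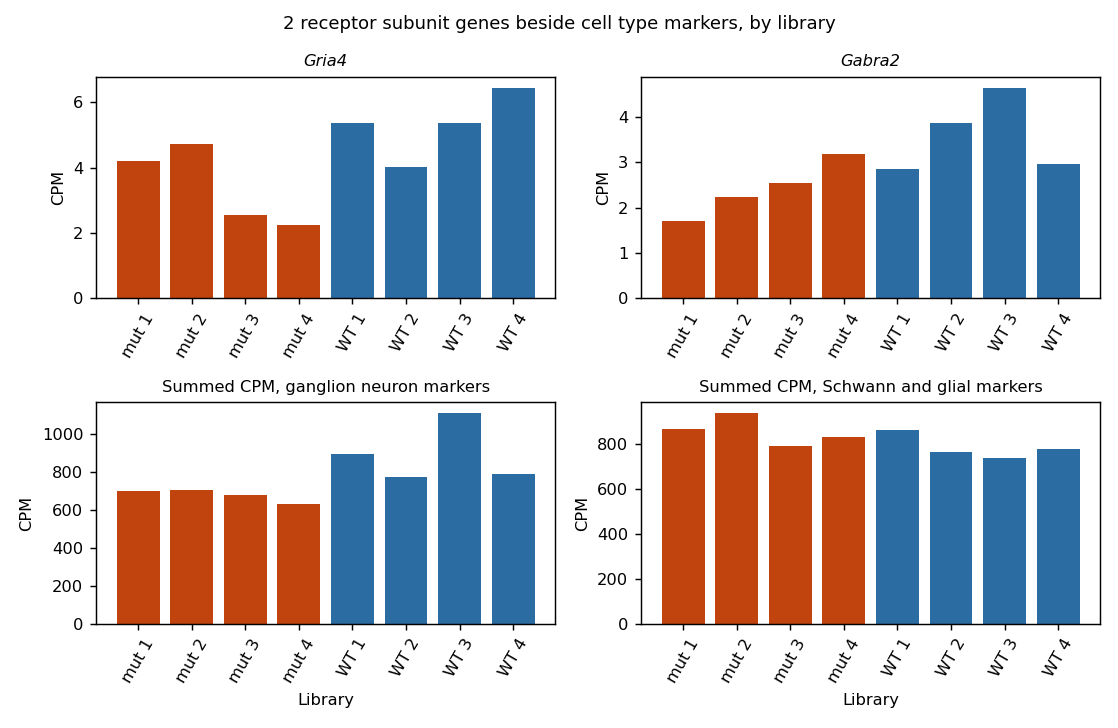
CPM of Gria4 and Gabra2 (top) and summed CPM of ganglion neuron and of Schwann and glial markers (bottom), 1 bar per library (mutant orange, wild-type blue). The ganglion neuron sum lies at 632 to 707 in the mutant and at 776 to 1113 in the wild-type libraries. Most of this gap lies in Nefm and Nefl, and not all markers in the sum share it. The genotypes overlap for Gria4 and Gabra2.

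GABA-A subunit genes of the epsilon, pi and theta types, Gabre, Gabrp and Gabrq, were all below the filter. Gabrp had 0, 0, 0 and 4 reads in mutant and 5, 6, 3 and 10 reads in wild-type libraries 1 to 4, and Gabrq had 16, 5, 1 and 0 reads in mutant and 7, 0, 4 and 0 reads in wild-type libraries. Gabre had 4 to 13 reads. None of the 3 had an adjusted p under 0.05 when fitted without a filter.

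Glycine receptors are chloride channels in which the beta subunit, encoded by Glrb, ties alpha subunits to the scaffold protein gephyrin. Glrb (chromosome 3, 80843599 to 80913660) was at 14.1, 18.9, 18.9 and 14.7 CPM in mutant libraries 1 to 4 and at 8.55, 13.5, 16.1 and 16.4 CPM in wild-type libraries 1 to 4. Wild-type library 1 was the lowest and the groups overlapped, with a log2 change of 0.29 (SE 0.20, adjusted p = 0.560 by edgeR). Its alpha partners were scarce: Glra1 had 0 to 8 reads, Glra3 had 12 reads in wild-type library 2 and 0 in the other 7 libraries, and Glra2 and Glra4, outside the authors' table, had 4 reads each over all libraries. Glrb itself had 2770 reads. A count of 0 allows up to 3 reads in a library, a limit that covers counting error only.

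The remaining 9 genes tested and described, which were neither the highest in CPM of those described in their subfamily nor past an unadjusted p of 0.05, had group means of 0.555 to 4.95 CPM. They were Gria1, Gria2, Grik1, Grik2, Grik4, Grin2b, Grin3a, Grm7 and Grm8. Their log2 changes ran from -0.71 (Grm8) to 0.17 (Grin2b), 7 negative and 2 positive, with adjusted p from 0.395 to 0.9997 by edgeR. Of the 15 genes below the filter, Grin2d had 3 to 14 reads. Grm4 had 10, 2, 20 and 4 reads in mutant and 4, 5, 6 and 2 reads in wild-type libraries 1 to 4. Grin3b had 8, 10, 2 and 14 reads in mutant and 10, 5, 3 and 0 reads in wild-type libraries 1 to 4. Summed over libraries, reads were fewer in the mutant group for 10 of the 15. Exons of Grin3b share 32.1% of their length with Tmem259 on the opposite strand, so its reads are uncertain. Fitted without a filter, the lowest adjusted p among the 15 was 0.236, for Grm2.

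The proteins that surround these receptors were described through 7 lists, from each of which the genes with the most CPM are given. These values are not divided by length, so they do not order the genes by level. Among AMPA receptor auxiliary subunits, which set channel trafficking and gating, 0 of 10 tested passed (median log2 change -0.092). Cacng8 was at 10.1 ± 1.44 CPM in the mutant and 7.40 ± 1.93 CPM in the wild-type libraries, and Cnih2 at 7.85 ± 2.66 and 8.86 ± 5.49 CPM (SD, n = 4 each). Kainate and NMDA receptor partners showed 0 of 4 past the threshold (median -0.0032), with Grina at 44.9 ± 4.69 and 45.0 ± 8.91 CPM and Srr, which makes the NMDA receptor coagonist D-serine, at 19.8 ± 1.58 and 20.1 ± 1.03 CPM. Of GABA-B receptor genes and partners 0 of 4 passed, with Kctd12 at 36.7 ± 4.13 and 30.9 ± 2.11 CPM and Kctd12b at 14.7 ± 2.98 and 14.9 ± 3.09 CPM. Of 18 postsynaptic scaffold genes tested 0 passed (median -0.062). The adhesion gene Nlgn3 was at 167 ± 18.2 and 170 ± 25.8 CPM and Lin7c at 106 ± 10.1 and 118 ± 7.92 CPM.

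Among GABA-A and glycine receptor partners 1 of 9 fell and 0 rose, with a median log2 change of -0.0024, where 1.15% of all genes passed. The gene that fell was Lhfpl4, whose protein binds GABA-A receptors and holds them at inhibitory synapses. It was at 0.729, 1.34, 1.09 and 0.818 CPM in mutant libraries 1 to 4 and at 7.06, 4.90, 10.4 and 6.55 CPM in wild-type libraries 1 to 4. The groups lay far apart, with wild-type library 3 the highest. The log2 change was -2.87 (SE 0.29, adjusted p = 0.000736 by edgeR, quasi-likelihood, Benjamini-Hochberg), and it passed in all 15 alternatives, without wild-type library 3 among them. Gphn, which encodes gephyrin, was at 44.0 ± 2.09 CPM in the mutant and 44.1 ± 2.74 CPM in the wild-type libraries, and Gabarap, which encodes a GABA-A receptor-associated protein, at 298 ± 33.1 and 289 ± 7.36 CPM (SD, n = 4 each).

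On the side of the transmitters, 2 of 11 genes of glutamate synthesis and transport fell and 0 rose (median log2 change -0.092), beside 1.15% of all genes past the threshold. Slc17a6, which loads glutamate into vesicles of neurons, was at 0.643, 0.574, 0.0835 and 0.123 CPM in mutant libraries 1 to 4 and at 2.17, 2.49, 6.55 and 4.17 CPM in wild-type libraries 1 to 4. Slc17a8, the vesicular transporter of hair cells and also a member of the hair cell list, was at 3.22, 4.01, 4.76 and 4.25 CPM in mutant libraries 1 to 4 and at 11.1, 8.78, 6.92 and 11.6 CPM in wild-type libraries 1 to 4. Neither gene's groups overlapped, and wild-type library 3 was the highest for Slc17a6 but the lowest of its group for Slc17a8. Their log2 changes were -3.44 (SE 0.58, adjusted p = 0.0175) and -1.24 (SE 0.20, adjusted p = 0.0137) by edgeR. The call for Slc17a6 was lost without wild-type library 3 (adjusted p = 0.0554) and with the replicate number as a block (0.114). That for Slc17a8 was lost without wild-type library 1 (0.0528) and with the block (0.0873).

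**Figure D4:**
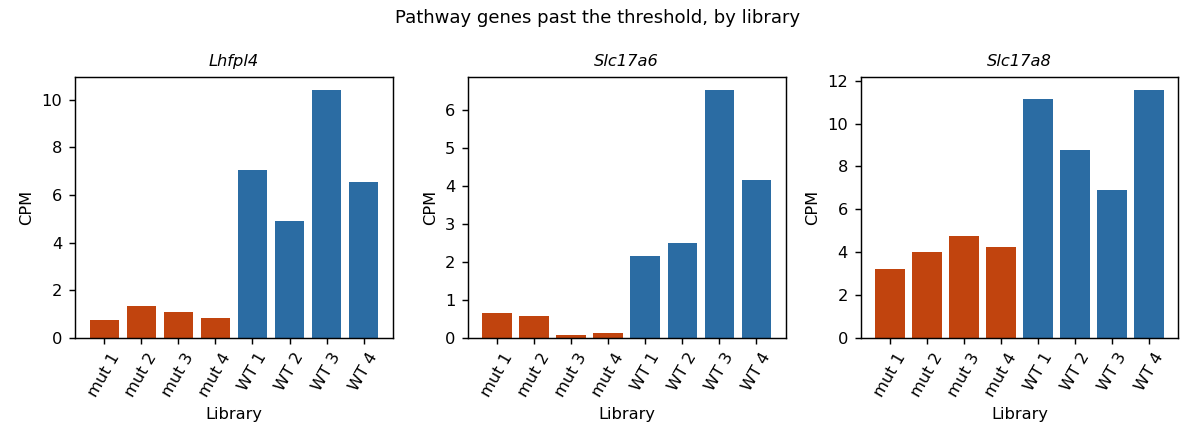
CPM of Lhfpl4, Slc17a6 and Slc17a8 in each library, 1 bar per library (mutant orange, wild-type blue), each panel with its own scale. Every mutant bar lies below every wild-type bar, with Lhfpl4 at 0.729 to 1.34 in the mutant and 4.90 to 10.4 in the wild-type libraries.

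The glial glutamate transporter gene Slc1a3 was at 389 ± 59.98 CPM in the mutant and 446 ± 33.2 CPM in the wild-type libraries, and Slc38a2 at 94.6 ± 22.7 and 86.3 ± 13.3 CPM (SD, n = 4 each). Of 11 genes of GABA and glycine synthesis and transport 0 passed (median log2 change 0.12). Abat, which breaks GABA down, was at 73.3 ± 6.41 and 73.0 ± 2.76 CPM, and the chloride importer gene Slc12a2 at 36.7 ± 4.08 and 31.3 ± 1.82 CPM (SD, n = 4 each). Slc32a1, the vesicular transporter of GABA and glycine, and Slc6a5, the neuronal glycine transporter, stayed below 10 reads in every library.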

How the data were processed

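The authors deposited unnormalized counts of read pairs per gene for each of the 8 libraries, and, for 7 of them, a signal made by dividing gene counts by 1 size factor per library. The submitters' processing notes name STAR 2.5.2a, the build GRCm38.p4 and DESeq2. From the deposited signal, 100% of values came out as whole reads (tolerance 0.001 reads), all equal to the counts. The count test on these reads, chosen after seeing the data, called 107 genes lower and 20 higher. Lines naming no gene held 25.2% to 33.9% of read pairs and were left out.

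Unstranded counts were scaled by TMM factors and tested with edgeR 4.0.16 (R 4.3.3) by the quasi-likelihood test, on genes with at least 10 reads in 4 or more libraries. Adjusted p-values (Benjamini-Hochberg) ran over every gene tested, and the threshold was 0.05. The test was checked on simulated data in which 200 genes were changed, the faintest genes tested not among them. It recovered 31.5% of 1.5-fold, 75.5% of 2-fold and 95% of 4-fold changes, with 2, 15 and 12 false calls. Most changes of 1.5-fold would thus be missed, also in receptor genes. For the faintest receptor genes tested, such as Gabrb1 (4 to 20 reads per library, SE 0.48), these rates do not hold at any size of change, because genes so faint were not changed. Exon lengths and coordinates came from GENCODE release 21 of the mouse series (48349 of 48823 identifiers found). Alternatives were DESeq2 1.42.0, its size factors, library totals, other filters, a replicate block and leaving out each library. No text here says whether pools shared litters, so p-values measure only the spread between these libraries.

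The receptor genes and all lists were chosen with earlier results of these data known. Of the 40 receptor genes 5 are not reported here and enter no count, median or share of receptor genes, though they stayed in the fit over all genes. Values by library are given for genes past the threshold or with an unadjusted p under 0.05, for tested genes changed over 2-fold and for the tested gene with the most CPM in each subfamily among those described. From each pathway list, genes past the threshold and the 2 with the most CPM are given. Gria2, Grm2, Grm4, Grin3b, Gabrb2, Gabrg1, Grik3, Gabrp, Gabrq, Glra3, Gabrd, Grin1, Slc32a1 and Slc6a5 were added after their values were seen. So were the single cell type markers whose values are given.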

Additional observations from a re-analysis of the deposited data

Results flagged for a closer look

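In 4 of 56 groups of 4 libraries 1 library lay far from the other 3, measured by its gap to the nearest library over the range of the group. Chance gives this in about 1 in 20 groups. In mutant library 3, Gabra4 was at 9.60 CPM (others 6.60 to 6.74), Grik1 at 4.38 CPM (others 3.52 to 3.56) and Gabre, on 11 reads, at 0.459 CPM (others 0.214 to 0.245). Glra3 was at 0.554 CPM, on 12 reads, in wild-type library 2 (others 0).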

How the results depend on the processing

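DESeq2 called 411 genes lower and 153 higher, and reads recovered from the authors' 7 libraries gave 107 lower. A fit with the replicate number as a block gave 80 genes lower, 16 higher and 1 lower gene on the pathway lists. Same-numbered libraries did not deviate together (r from -0.0956 to 0.0283), so the numbers were not taken to pair them. With 1 library left out, 104 to 143 genes were lower and 14 to 28 higher, and the median log2 change of the receptor genes ran from -0.16 to 0.034, positive only without wild-type library 1. In all 15 alternatives 0 receptor genes described passed. Of 165 comparisons (11 receptor genes, 15 alternatives), 157 kept direction and call and 8 changed sign. With 1 library left out, the log2 change of Gabrg3 ran from -1.05 to 0.18 (positive without mutant library 1, mutant library 3 or wild-type library 1), that of Grik5 from -0.14 to 0.059 (positive without mutant library 3 or wild-type library 1), that of Grin2a from -0.051, without mutant library 1, to 0.42, and that of Grm3 from -0.52 to 0.24, without wild-type library 4. On the recovered reads that of Grm3 was 0.25. The cause was not tested. Depth limits the 15 untested receptor genes, which had at most 21 reads in a library.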
